A study of Mus musculus with 6 samples.

Results

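The genes described here encode the proteins of the mitochondrial ribosome, measured in lumbar spinal cord of mice labelled Egr3-deficient and of wild-type mice. They were chosen by name: every probe set whose single platform symbol starts with Mrps or Mrpl and a number. The rule found 76 genes of 18193 genes with a probe set of 1 symbol, and 160 probe sets in all. A probe set is a group of short oligonucleotides on the array that reads 1 transcript, so a gene can have several. RefSeq lists 78 protein-coding mouse genes with such a symbol; Mrpl30 and Mrpl53 had no probe set of a single symbol.

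Mitochondria have their own ribosomes, which translate the few messenger RNAs of mitochondrial DNA, all of them for subunits of the respiratory chain and of ATP synthase. The proteins of these ribosomes are encoded in the nucleus, made in the cytosol and imported. Some descend from bacterial ribosomal proteins and others were added during the evolution of mitochondria. Neurons depend strongly on oxidative phosphorylation, and loss of single mitochondrial ribosomal proteins is known to cause disease of brain, heart and muscle in humans. Egr3 is a zinc finger transcription factor that muscle spindles are known to need for their development.

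The data came from 3 RNA pools, and each pool was total RNA of 3 cords (segments L3 to L5, postnatal day 27). Pool 1 (RNA 450) and pool 2 (RNA 500) are labelled Egr3-deficient, and the third pool (RNA 499) is labelled wild type. There were 2 array types, A and B below, and each pool was put on both. The arrays of A carried labelled extract 1 and those of B labelled extract 2. The labels give no strain, allele or sex, and a remark on acclimatization that pool 2 and the wild-type pool carry is missing for pool 1. With a lone wild-type pool, 2 pools against 1 cannot go below p = 0.333 in an exact permutation test (one-sided), and the wild-type spread is not measured. In pooled bulk RNA, fewer cells of a type and less RNA per cell cannot be told apart.

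Values of all probe sets set the frame for what follows. On array type A the deposited intensities had medians of 50.3 and 57.9 in pools 1 and 2, against 60.1 in wild type, and on B of 76.2 and 83.8, against 91.8. Egr3 itself read 24.9 and 52.7 in the pools labelled Egr3-deficient, against 40.6 in wild type, on A, and 210 and 107, against 75.3, on B. It was thus not lower in both pools on either array type, and whether its probes lie inside the deleted part is not stated, so the pools are called by their labels. Myelin markers were abundant in every pool (summed intensity on A of 12086 and 16417 in pools 1 and 2, against 16992 in wild type), and the measured lumbar Hox genes summed to 613 and 628, against 397.

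On array type A, most mitochondrial ribosomal protein probe sets read above wild type in both pools labelled Egr3-deficient, by small amounts. Of 127 member probe sets, 107 passed the filter on dim values and at least 1 did so for each of the 74 genes. Of these, 77 lay above wild type in both pools (background over all kept probe sets 47.9%), 13 lay below in both (background 34.8%) and 17 lay on different sides. Among the 77, a probe set of Mrpl57 lay below the filter level in wild type and was kept through the pools where it was high. Among the 13, a probe set of Mrpl15 lay below that level in both pools and was kept through wild type. The median log2 difference, the mean of both pools minus wild type, was 0.39 for the members and 0.11 for all kept probe sets. By pool, the members' median was 0.54 in pool 1 and 0.34 in pool 2.

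No single member passed the test. With limma, 0 of the 107 reached an adjusted p of 0.05 (background 0.0663% called higher and 0% lower), and the smallest adjusted p was 0.161. Unadjusted p values under 0.05 were found for 12 members above wild type and 1 below (backgrounds 7.93% and 12.7%). At least 2-fold in both pools were 0 members above (background 1.2%) and 1 below, Mrpl50 (background 4.35%). The standard errors ran from 0.259 to 0.580 with a median of 0.319 for single member probe sets.

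**Figure D1:**
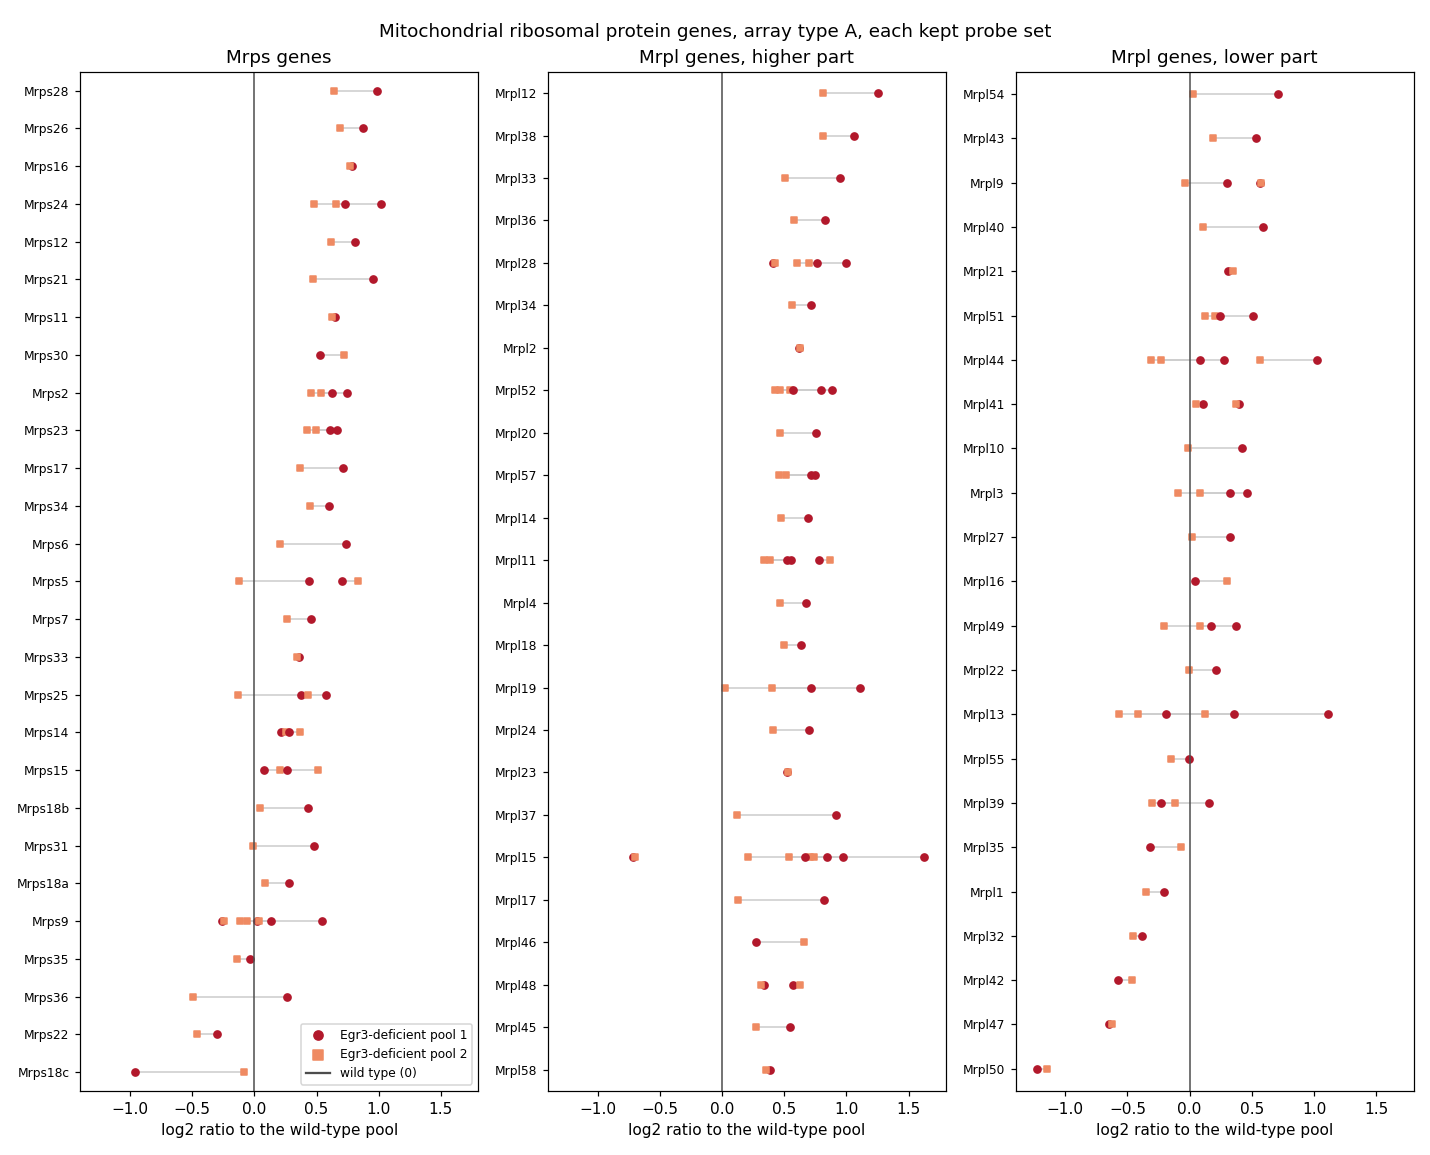
Log2 ratio to the wild-type pool (x axis) of every kept mitochondrial ribosomal protein probe set on array type A, by gene (y axis); circles stand for pool 1, squares for pool 2, and a grey line joins the values of a probe set. Most points lie right of the wild-type line, pool 1 lies right of pool 2 in 83 of 107 probe sets, and Mrpl50 lies farthest left. The share of all kept probe sets with pool 1 above pool 2 is not given here.

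The pools labelled Egr3-deficient were not alike, in the members as over all kept probe sets. Pool 1 read above pool 2 in 83 of the 107 member probe sets, and the share over all kept probe sets is not given here. Over all kept probe sets the median log2 ratio was 0.16 in pool 1 and 0.06 in pool 2. The gap between the pools had a median of 0.22 on the log2 scale in the members, against 0.26 over all kept probe sets. In pool 1, 93 members lay above wild type and in pool 2, 78 did (backgrounds 58.6% and 54.4%).

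Both ribosomal subunits showed the shift, beside backgrounds of 47.9% above and 34.8% below wild type in both pools. The small subunit binds messenger RNA and decodes it, and of its 34 kept probe sets 25 lay above wild type in both pools, 4 lay below, with a median log2 difference of 0.43. The large subunit forms the peptide bond, and 52 of its 72 lay above, 9 below, with a median of 0.40. Proteins with a bacterial counterpart had 47 of 64 above and a median of 0.47, and proteins found only in mitochondria had 30 of 42 above and a median of 0.36. The difference between these classes was not tested. Mrps18a and Mrps30, named after the small subunit, were counted with the large subunit, where they are known to sit. Mrps36 was counted with neither, since it is now known as a part of the 2-oxoglutarate dehydrogenase complex; it read 387 and 223 in pools 1 and 2, against 321 in wild type.

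In the small subunit, Mrps16, the counterpart of bacterial S16, read 419 and 405 in pools 1 and 2, against 238 in wild type (log2 difference 0.78, SE 0.29, limma adjusted p = 0.206). Both pools stood well apart from wild type and close to each other. One of the probe sets of Mrps5, the counterpart of bacterial S5, read 94.4 and 111, against 59.4 (0.77, adjusted p = 0.240). Mrps28 had 279 and 218, against 140, and Mrps26, found only in mitochondria, had 372 and 323, against 201. Mrps12, whose bacterial counterpart S12 guards decoding accuracy, had 458 and 393, against 257. These readings all lay above wild type in both pools without passing the test. Mrps34 was 938 and 796, against 574, with a log2 difference of 0.52.

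Of the small-subunit genes below wild type in both pools, Mrps22, a mitochondria-specific protein, read 200 and 183, against 261 (log2 difference -0.38, adjusted p = 0.499). Mrps18c read 122 and 247, against 266, so that pool 1 alone stood apart. Mrps35 was close to wild type, with 145 and 139, against 162.

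In the large subunit the member farthest above wild type, by the smaller of its 2 pool ratios, was Mrpl12. It is the counterpart of bacterial L7/L12, the stalk protein that recruits translation factors, and human MRPL12 is known also to bind the mitochondrial RNA polymerase. It read 758 and 533 in pools 1 and 2, against 301 in wild type, a log2 difference of 1.03 (SE 0.31, limma adjusted p = 0.170). Mrpl11, at the base of the same stalk, read 379 and 398, against 219, with its leading probe set (0.82, adjusted p = 0.198). Its other 2 probe sets had smaller differences, of 0.45 each, also above wild type in both pools. The third stalk protein, Mrpl10, lay on different sides of wild type, with 363 and 263, against 269.

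Mrpl38, a mitochondria-specific protein of the central protuberance, read 186 and 159, against 88.8 (0.94, adjusted p = 0.193). On B its kept probe set lay on different sides of wild type, with 253 and 126, against 237 (-0.33). A probe set of Mrpl15, the counterpart of bacterial L15, read 582 and 473, against 284 (0.85, adjusted p = 0.189). Mrpl28 lay above wild type in both pools with all 3 of its probe sets, by 0.42 to 0.85. Mrpl58, a peptidyl-tRNA hydrolase built into the large subunit, read 524 and 498, against 392. On A, all of these probe sets lay above wild type in both pools, as 47.9% of all kept probe sets did, and none passed the test.

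Few large-subunit genes read clearly lower. Mrpl50, a mitochondria-specific protein, read 94.8 and 108 in pools 1 and 2, against 261 in wild type, a log2 difference of -1.19 (SE 0.32, limma adjusted p = 0.161). Both pools were below wild type by more than 2-fold, and its adjusted p was the smallest among the members on A. Mrpl47, the counterpart of bacterial L29 near the exit of the peptide tunnel, read 141 and 150, against 244 (-0.63, adjusted p = 0.288). On B its kept probe set lay above wild type in both pools in the main normalization, with 97.7 and 92.6, against 82.4 (0.35). Mrpl42 read 352 and 377, against 526 (-0.52, adjusted p = 0.326). Mrpl32, which the m-AAA protease is known to process before assembly, read 187 and 182, against 260 (-0.42, adjusted p = 0.453). On A, in all 4 the pools labelled Egr3-deficient lay close to each other and below wild type.

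**Figure D2:**
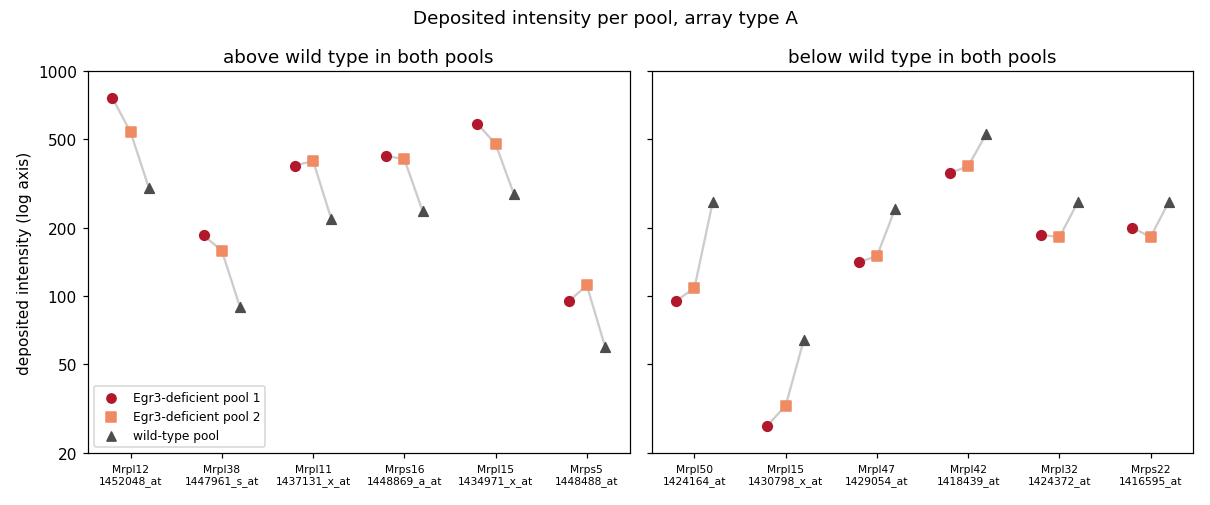
Deposited intensity (log axis) in pool 1 (circles), pool 2 (squares) and the wild-type pool (triangles) of the 6 member probe sets farthest above and the 6 farthest below wild type in both pools on array type A, by the smaller of the 2 pool ratios. Mrpl12 stands at 758 and 533 in the pools labelled Egr3-deficient against 301 in wild type, and Mrpl50 stands at 94.8 and 108 against 261.

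Some member probe sets stayed at the wild-type level. One probe set of Mrpl41 read 475 and 446, against 436 (0.08), and one of Mrps9 read 84.4 and 81.3, against 93.7 (-0.05). The other kept probe set of Mrpl41 was brighter and lay above wild type in both pools, with 651 and 621, against 479 (0.38). The 4 kept probe sets of Mrps9 ran from -0.25 to 0.24. In Mrpl13, the counterpart of bacterial L13, the pools went apart most. One of its probe sets read 183 and 57.1, against 83.9, with log2 ratios of 1.11 in pool 1 and -0.41 in pool 2. Another read 235 and 118, against 189. The third, and brightest, read 536 and 646, against 591. For Mrpl13 these readings give no common direction.

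Probe sets of 1 gene did not always agree. On A, 23 genes had several kept probe sets; in 13 of them each lay above wild type in both pools, and in 2 (Mrpl15 and Mrps9) some lay above and others below. Mrpl15 had the widest spread, with 5 probe sets from -0.71 to 1.17. The lowest of them was also the dimmest, at 26.5 and 32.5, against 63.9 (adjusted p = 0.264), and was kept only through wild type; the highest read 296 and 149, against 90.4. The other 3 lay between 0.53 and 0.85, so 4 of 5 were above wild type in both pools. Names ending in _x_at or _s_at mark probe sets that may bind more than 1 transcript, and 18 of the 107 were of these kinds.

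Promoter sequences were set beside these readings because many nuclear genes for mitochondrial proteins are known to be driven by the factors NRF1 and GABPA and, for some, YY1. RefSeq windows (build GRCm38.p6) were matched for 67 of the 76 genes and read over the 250 bases before the start, on both strands. The GABPA core CCGGAAG stood in 17 of 67 members (25.4%, against 7.83% of all genes), the NRF1 core (GCGCA and GCGC split by 1 base of any kind) in 9 (13.4%, against 4.23%) and the YY1 core AAGATGGCG in 2 (2.99%, against 0.710%). Any of these 3 was found in 27 members (40.3%, against 11.8%). The core bound by EGR factors, GCGNGGGCG, stood in 4 (5.97%, against 5.33%). The members' windows were richer in G and C (median 58.4%, against 52.0%) and in the pair CG (median 17, against 6), which alone changes how often such letters occur. All genes here are the 27025 with a RefSeq window, whether or not they were read on the arrays. A match is a run of letters and not a site shown to be bound.

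The following 4 windows are shown, 5′ to 3′ along the gene's strand. By the smaller of the 2 pool ratios, they are those of the member farthest above wild type (Mrpl12) and of the members farthest below with a single window (Mrpl50 and Mrpl47). The fourth is a window that 2 members share (Mrps11, whose neighbour Mrpl46 runs the other way). Capitals mark a matched core: in Mrpl12 an NRF1 core 81 bases before the start, on the reverse strand, and in Mrps11 a YY1 core 108 bases before the start, also on the reverse strand. The Mrpl12 window lies at chr11:120484387-120484636 (plus strand), Mrpl50 at chr4:49521084-49521333 (minus strand), Mrpl47 at chr3:32736756-32737005 (minus strand) and Mrps11 at chr7:78782881-78783130 (plus strand).
Mrpl12: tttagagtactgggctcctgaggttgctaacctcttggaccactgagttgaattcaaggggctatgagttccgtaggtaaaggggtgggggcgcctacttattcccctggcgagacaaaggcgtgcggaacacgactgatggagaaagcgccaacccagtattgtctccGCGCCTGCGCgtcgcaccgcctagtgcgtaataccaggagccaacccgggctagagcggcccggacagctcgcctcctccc
Mrpl50: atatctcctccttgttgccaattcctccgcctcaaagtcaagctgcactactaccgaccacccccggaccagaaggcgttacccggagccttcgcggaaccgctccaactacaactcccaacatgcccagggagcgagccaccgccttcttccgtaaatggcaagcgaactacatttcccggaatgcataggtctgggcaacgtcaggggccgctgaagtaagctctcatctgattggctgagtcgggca
Mrpl47: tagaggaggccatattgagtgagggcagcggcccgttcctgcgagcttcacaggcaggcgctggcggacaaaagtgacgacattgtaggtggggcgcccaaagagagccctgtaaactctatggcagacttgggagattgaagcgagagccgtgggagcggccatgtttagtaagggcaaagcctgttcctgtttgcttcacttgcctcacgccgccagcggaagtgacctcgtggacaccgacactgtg
Mrps11: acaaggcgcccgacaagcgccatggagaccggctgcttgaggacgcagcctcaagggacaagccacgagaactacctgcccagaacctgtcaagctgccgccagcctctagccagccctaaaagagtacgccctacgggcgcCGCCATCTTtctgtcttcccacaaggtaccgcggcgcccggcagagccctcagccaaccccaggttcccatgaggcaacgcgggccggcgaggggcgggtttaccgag

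On array type A, probe sets of members with a GABPA core had a median log2 difference of 0.36, against 0.40 without it, and those with an NRF1 core 0.44, against 0.37. Above wild type in both pools were 57.1% of the probe sets with an NRF1 core, against 75.3% of those without. The 2 probe sets with a YY1 core had a median of 0.67, against 0.37. With an EGR core there were 7 probe sets of 4 genes with a median of 0.60, against 0.38 in the 84 without. That median is the value of a Mrpl57 probe set that was dim in wild type and kept through the pools where it was high. Of the probe sets with an EGR core 71.4% lay above wild type in both pools, against 72.6% of those without. These are descriptions of small classes, and their differences were not tested.

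Many members stand back to back with another gene. In 23 of the 67 (34.3%, against 11.9% of all genes) the window, here 300 bases with 50 after the start, overlapped that of a gene on the opposite strand. Mrps11 and Mrpl46 form such a pair of 2 members. Mrps11 read 274 and 272, against 178 (0.64), and Mrpl46 read 284 and 374, against 239 (0.47), so both lay above wild type in both pools. Mrps12 shares its window with Sars2, the mitochondrial seryl-tRNA synthetase, which read 52.3 and 52.0, against 41.5. Mrpl47 shares its window with Ndufb5, a subunit of complex I, whose probe sets had log2 differences of 0.08 and 0.22 where that of Mrpl47 was -0.63. Over the non-member partners with a kept probe set on A, 8 of 14 probe sets were above and 3 below wild type in both pools. The backgrounds were 47.9% and 34.8%, and the partners' median was 0.15, against 0.11 over all kept probe sets.

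Array type B carries fewer of these genes and gave the same picture in the main normalization. It held 33 member probe sets of 27 genes, of which 28 (23 genes) passed the filter, and 2 genes, Mrps10 and Mrps27, were on B alone. In wild type 2 of the 28, of Mrpl15 and Mrps21, lay below the filter level and were kept through the pools where they were high. Both are counted among those above wild type. Above wild type in both pools were 22 (background 38.9%), below 3 (background 36.6%), with a median log2 difference of 0.47, but the median turned to -0.18, with 11 above and 14 below, when arrays were scaled on the 100 probe sets that A and B share. That scaling moved the median of all kept probe sets on B from near 0.00 to -0.66. The shares of all kept probe sets above and below wild type under it are not given here. Relative to all kept probe sets, the members' median stood 0.47 higher in the main normalization and 0.48 higher under that scaling. Pool 1 read above pool 2 in 25 of the 28, and the share over all kept probe sets is not given here. The gap between the pools had a median of 0.26, against 0.38 over all kept probe sets. Taken alone, pool 1 had 25 members above wild type and pool 2 had 22 (backgrounds 52.4% and 49.8%).

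With limma 0 of the 28 passed on B (background 1.02% called higher and 0.607% lower). The smallest adjusted p was 0.0772. Unadjusted p values under 0.05 were found for 9 members above wild type and 0 below (backgrounds 7.4% and 6.83%). At least 2-fold in both pools were 2 members above (background 4.27%), Mrps21 and Mrpl52, and 0 below (background 1.8%). Robust eBayes called Mrpl52 (adjusted p = 0.0460), and the mean over probe sets of a gene called Mrpl43 (adjusted p = 0.0475).

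**Figure D3:**
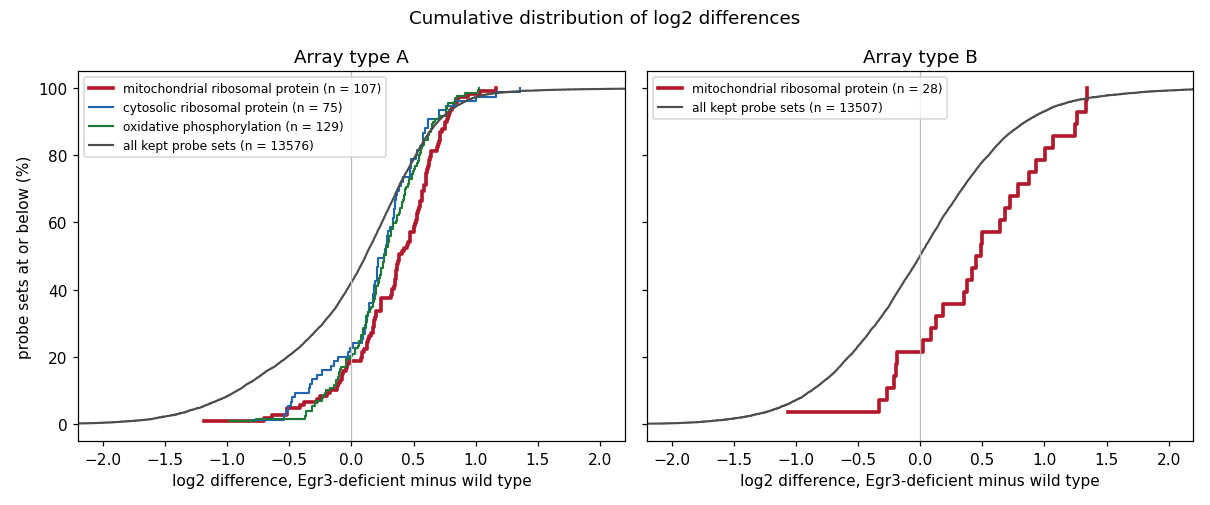
Cumulative share of probe sets (y axis, percent) at or below each log2 difference (x axis, mean of both Egr3-deficient pools minus wild type), for mitochondrial ribosomal protein probe sets (thick line), the 2 other gene groups (array type A only) and all kept probe sets. At the median and both quartiles the members' line lies right of that of all probe sets on both array types. The medians are 0.39 against 0.11 on A and 0.47 against near 0.00 on B. The highest member lies at 1.17 on A and 1.35 on B, below the highest of all probe sets (4.74 and 4.99). Under scaling on shared probe sets the members' median on B was -0.18 and that of all probe sets -0.66.

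The members that led on B belong to both subunits: 8 of 11 small-subunit and 14 of 17 large-subunit probe sets lay above wild type in both pools in the main normalization, with medians of 0.64 and 0.38. In the large subunit, Mrpl52, a mitochondria-specific protein, read 1391 and 812 in pools 1 and 2, against 370 in wild type, with its _x_at probe set (1.35, SE 0.41, adjusted p = 0.0772), and 979 and 672, against 364, with the other (1.004, adjusted p = 0.239). Mrpl43 read 2068 and 1590, against 716 (1.07, adjusted p = 0.133). Mrpl44, which carries a ribonuclease III fold, read 320 and 151, against 92.1 (1.25, adjusted p = 0.184). These probe sets lay above wild type in both pools, also under scaling on the shared probe sets. There their log2 differences were 0.91 and 0.55 for Mrpl52, 0.75 for Mrpl43 and 0.55 for Mrpl44. On A, the 3 kept probe sets of Mrpl44 had log2 differences of -0.07, -0.02 and 0.80. Only that at 0.80 lay above wild type in both pools.

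In the small subunit, Mrps21, the counterpart of bacterial S21, read 150 and 154, against 59.1 (1.33, adjusted p = 0.186; 0.59 under scaling on the shared probe sets). In wild type this Mrps21 probe set lay below the filter level, so it too was kept through the pools where it was high. Mrps6, the counterpart of bacterial S6, read 3290 and 1951, against 1069 (0.93, adjusted p = 0.179; 0.66 under that scaling). Both genes stayed above wild type in both pools. Mrps27, a pentatricopeptide repeat protein, read 328 and 321, against 244, a log2 difference of 0.41 that turned to -0.19 under that scaling.

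The 3 probe sets below wild type in both pools on B belonged to Mrps10, Mrps15 and Mrpl48. That of Mrps10, the counterpart of bacterial S10, read 97.9 and 26.6, against 142 (-1.06, adjusted p = 0.524). Its other and brighter probe set read 1495 and 1089, against 630 (0.79), so Mrps10 has no common direction. That of Mrps15 read 125 and 147, against 170 (-0.19), and that of Mrpl48 read 231 and 182, against 258 (-0.26). On A, both probe sets of Mrpl48 lay above wild type, at 0.33 and 0.60. Mrps5 had 3 kept probe sets on B, with log2 differences of -0.19, 0.45 and 1.26, of which the second turned to -0.18 under scaling on the shared probe sets and the first to 0.08 under median centring.

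Probe sets present on both array types read the same RNA pools on separate arrays. On A that of Mrpl43 differed by 0.36 and on B by 1.07, and that of Mrpl27, the counterpart of bacterial L27 in the peptidyl transferase centre, by 0.17 and 0.49. For Mrpl52 the values were 0.63 and 1.004, and 0.71 and 1.35. In each case the value on B was the larger. Over all 100 shared probe sets the median was 0.12 on A and 0.45 on B, with 54 and 73 above wild type in both pools, so the offset between the array types was not particular to the members. Array type and labelled extract changed together, so they cannot be told apart in this offset.

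**Figure D4:**
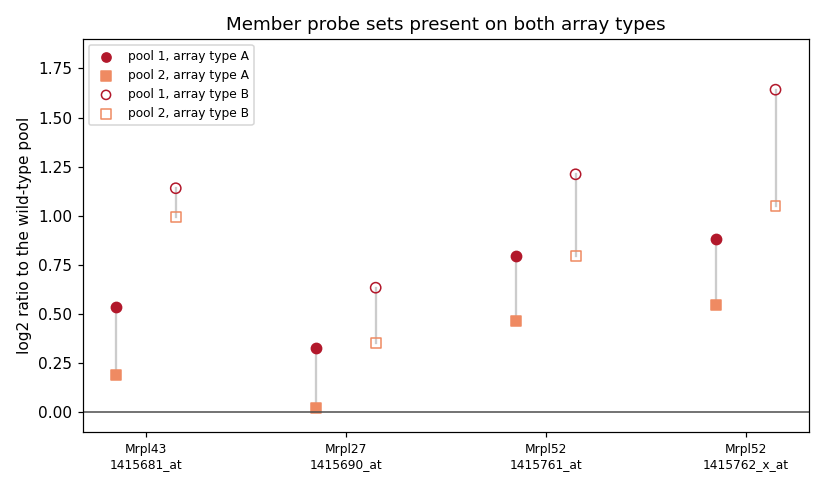
Log2 ratio to the wild-type pool (y axis) of the 4 member probe sets present on both array types, in pool 1 (circles) and pool 2 (squares), on array type A (filled) and B (open), in the main normalization. Values on B lie above those on A for each probe set, as with Mrpl43 at 0.36 on A and 1.07 on B (0.75 on B under scaling on the shared probe sets).

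Other genes of protein synthesis and respiration were set beside the members. Of the 75 kept probe sets of cytosolic ribosomal protein genes on A, 53 were above and 13 below wild type in both pools (backgrounds 47.9% and 34.8%). Their median was 0.26. Subunits of oxidative phosphorylation, into which the products of mitochondrial translation are built, had 90 of 129 above and 20 below, with a median of 0.27. The members' median of 0.39 was the highest of the 3, and the difference was not tested. On B, only 3 cytosolic ribosomal protein and 9 oxidative phosphorylation probe sets were kept, and they are not compared here.

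The wider machinery of mitochondrial gene expression was mixed. It was read as 5 lists of translation factors, assembly factors, aminoacyl-tRNA synthetases, RNA factors and ribosome components outside the Mrp names. On A, 33 of their 57 kept probe sets were above and 14 below wild type in both pools (backgrounds 47.9% and 34.8%). Their median was 0.25, and 0 passed the limma test (background 0.0663% called higher and 0% lower). Polrmt, the mitochondrial RNA polymerase, had a probe set at 340 and 228, against 133 (1.04, adjusted p = 0.188). Hsd17b10, a subunit of mitochondrial RNase P, read 524 and 478, against 270 (0.87, adjusted p = 0.181). Mtif2, the initiation factor that places the first tRNA, stood on the other side with 49.7 and 67.5, against 195 (-1.42, adjusted p = 0.161).

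Of 15 kept probe sets for nuclear regulators of mitochondrial genes on A, 5 were above and 10 below wild type in both pools. The backgrounds were 47.9% and 34.8%. The regulators' median was -0.35, and 0 passed the test. The 5 probe sets of Ppargc1a were 5 of the 10 lower ones: without them 5 were above and 5 below, with a median of -0.03. Ppargc1a, the coactivator PGC-1alpha, had a probe set at 34.0 and 63.1, against 180 (-1.55, adjusted p = 0.161), and all 5 lay below. Gabpa, which encodes the factor of the most frequent promoter core above, read 30.5 and 37.3, against 91.1 (-1.002, adjusted p = 0.179). This probe set lay below the filter intensity of 36.7 in pool 1 and close to it in pool 2, so it was kept through its wild-type value. Nrf1 had 1 probe set below (-0.19) and 1 above (0.47) on A, and its kept probe set on B lay below, with 179 and 255, against 323 (-0.54). Esrra, a nuclear receptor that works with PGC-1alpha, read 274 and 178, against 115, on A (0.93, adjusted p = 0.217) and 70.3 and 88.5, against 187, on B (-0.98, adjusted p = 0.391), so its 2 probe sets lay on opposite sides.

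On B, 19 of 29 probe sets of the same 5 lists were above and 6 below wild type in both pools (backgrounds 38.9% and 36.6%). Their median was 0.41, and 2 passed the test (background 1.02% called higher and 0.607% lower). Tufm, the elongation factor that brings aminoacyl-tRNA to the mitochondrial ribosome, rose to 1543 and 971 in pools 1 and 2, against 355 in wild type (1.62, SE 0.41, adjusted p = 0.0256). The call was lost under scaling on the shared probe sets (1.17, adjusted p = 0.335), without quantile normalization (adjusted p = 0.265), without the filter (adjusted p = 0.476) and without the trend (adjusted p = 0.298). On A its kept probe set read 64.6 and 197, against 84.2. Vars2, the mitochondrial valyl-tRNA synthetase, rose to 145 and 162, against 27.7 (2.11, SE 0.58, adjusted p = 0.0415), and its call was lost in the same 4 settings and with adjustment over both array types (adjusted p = 0.0660), and a filter at the 60th percentile left it out. Its wild-type value lay below the filter intensity of 55.9, so this probe set was kept only through the pools where it was high. Its other probe set read 164 and 153, against 152 (0.16). Pnpt1, the mitochondrial polynucleotide phosphorylase, read 39.8 and 71.7, against 173 (-1.30, adjusted p = 0.317), and Mtif2 read 209 and 304, against 571 (-1.22, adjusted p = 0.156).

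Gene length moved with the log2 differences. The members are short genes, with a median genomic length of 7.63 kb, against 24.1 kb over all kept probe sets on A with a known length. In the shortest quartile on A, the median over all probe sets was 0.36, and 69.2% lay above wild type in both pools. The longer quartiles had medians of 0.20, -0.01 and -0.21. Of the 107 members, 71 fell in the shortest quartile, where their median was 0.47 and 59 lay above wild type in both pools. The 24 members of the next quartile had a median of 0.29 with 12 above, beside 54.5% of all. On B the medians over all were 0.30, 0.12, -0.05 and -0.15, and the members numbered 19, 6, 3 and 0. In the quartiles that held members, their medians on B were 0.49, 0.55 and 0.41. The part of length in the members' shift was not tested.

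**Figure D5:**
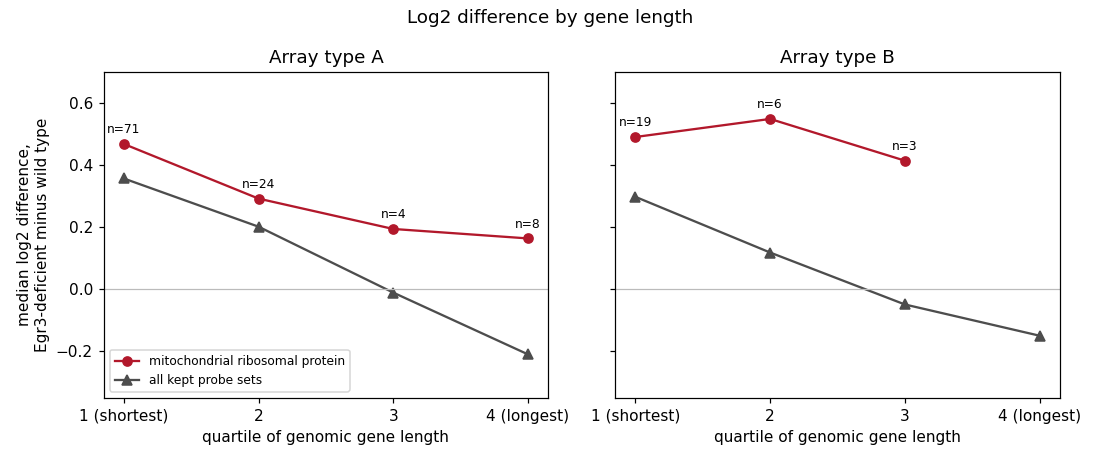
Median log2 difference (y axis, mean of both Egr3-deficient pools minus wild type) by quartile of genomic gene length (x axis) for mitochondrial ribosomal protein probe sets (circles, with their number) and all kept probe sets (triangles), in the main normalization. Both lines are lower in the longer quartiles on A, and in the shortest quartile the members' median is 0.47 and that of all probe sets 0.36; on B the median over all members was -0.18 under scaling on shared probe sets.

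Markers of other tissues moved with the labels, and so did most control ratios of RNA quality. All 8 of 8 skeletal muscle markers measured on A lay above wild type in both pools, with summed intensities of 3451 and 3992, against 115, and 7 of the 8 were below the filter intensity in wild type. All 4 measured liver markers did so too, with sums of 370 and 9168, against 106. On B only 2 muscle markers were measured, and their sums of 222 and 340, against 197, were much closer to wild type. The 1 liver marker measured on B read 584 and 6739, against 50.9. Of the 7 neuronal markers measured on A, 3 lay above and 4 below wild type in both pools, and their sum of 3243 and 4254, against 6228, was mostly Snap25 (2172 and 3140, against 4838). On B, 3 of 4 lay above and 0 below, with sums of 7652 and 8819, against 5670. No measured marker was listed at 0. The 3′ to 5′ ratio of the Gapdh control probe sets on A was 0.858 and 0.975, against 0.734, and that of 18S RNA was 2.27 and 1.08, against 0.0493. Of the 5 such controls, 4 had a higher ratio than wild type in both pools on each array type. The exceptions were transferrin receptor on A (1.55 and 2.29, against 1.56) and actin on B (1.395 and 1.470, against 1.520), and actin on A barely differed in pool 1 (1.367 and 1.481, against 1.365). Muscle and liver are rich in mitochondria, and the part of these tissues, or of RNA quality, in the members' shift was not tested.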

How the data were processed

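Total RNA of 3 spinal cord pools was hybridised to 2 array types, and the authors deposited a linear intensity for each probe set. How probes were summarised is not given in the sources used. The mean left by trimming 2% off both ends was 150.02 to 150.06 on the 6 arrays. Control probe sets (64 per array type) were left out. Each array type was analysed alone: log2(intensity + 16), quantile normalization over 3 arrays, and a filter at the 40th percentile of the mean (intensity of 36.7 on A and 55.9 on B), which kept 13576 and 13507 probe sets. The test was limma 3.58.1 in R 4.3.3 (lmFit, eBayes with trend), Benjamini-Hochberg adjusted over all kept probe sets of the array type, threshold 0.05. It was run on simulated data whose changes were larger than the log2 difference of any kept member. Its power for changes of the members' size was not tested. With 1 residual degree of freedom, the prior (6.54 degrees of freedom on A, 52.3 on B) sets most of the error, and the lone wild-type pool is assumed to vary like the others. Nothing says that the pools are independent beyond their cords, so p-values measure the spread between these pools. The number of arrays limits the precision. Log2 differences understate changes of dim genes.

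Members, lists and tests were chosen with earlier results of these data known. Genes named in depth were the 6 kept members farthest above and the 6 farthest below wild type in both pools per array type, by the smaller of both ratios, those closest to wild type, those with the widest gap between pools, and the 3 genes whose probe sets disagree most. Of the other lists, 2 per direction were named. Other members given with values were chosen after these were seen, for their role. Symbols came from the platform annotation. Promoters and gene lengths came from RefSeq (GRCm38.p6). Alternatives were other normalizations (none, median centring, scaling on shared probe sets), pseudocounts of 1 or 64, the filter dropped or set at the 60th percentile, eBayes robust or without the trend, p-values adjusted over A and B together, either Egr3-deficient pool left out, gene means and RefSeq symbols. Leaving out _x_at and _s_at probe sets, or Mrps36, was added after seeing the data.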

Additional observations from a re-analysis of the deposited data

How the results depend on the processing

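Of 124 values of the counts, medians and calls under an alternative, 114 kept their direction and their side of the threshold or stayed within a tolerance, which was a ratio of 1.5 for counts and, for medians, 1 SD of the medians of both pools (0.140 on A, 0.136 on B). So did 433 of 446 values of single members, by direction and threshold. Scaling on the 100 probe sets that A and B share turned the members' median on B to -0.18, beside -0.66 for all kept probe sets, with 11 above and 14 below wild type in both pools. The shares of all kept probe sets above and below under that scaling are not given here. Without the filter, 21 of 127 members on A (background 35.5%) and 5 of 33 on B (background not given here) lay below in both pools. With 1 pool labelled Egr3-deficient left out, the members' median ran from 0.33 (without pool 1) to 0.54 (without pool 2) on A and from 0.35 to 0.56 on B. On A, the count above wild type was then 78 of 106 without pool 1 (background 53.4%) and 93 of 107 without pool 2 (background 58.3%). The count below was 28 without pool 1 (background 46.5%) and 14 without pool 2 (background 41.6%). On B the counts ran from 22 to 25 above and from 3 to 6 below, with backgrounds not given here. No test was possible with a pool left out. On B, 1 member passed with robust eBayes (Mrpl52, adjusted p = 0.0460) and 1 with gene means (Mrpl43, adjusted p = 0.0475). The cause was not tested. On A, 0 members passed in any of the alternatives with a test, and the smallest adjusted p was 0.0584 (median centring).

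Of single probe sets, 1 of Mrpl13 ran from -0.40 to 1.12 with a pool left out. Another ran from -0.56 to 0.36 and was 0.071 as a gene mean. That of Mrps9 ran from -0.12 to 0.022 and was 0.0064 as a gene mean. The gene mean also turned Mrpl15 to 0.26, Mrps5 to 0.51 and Mrps10 to -0.13 (the last 2 on B). On B the same Mrps5 probe set turned to 0.083 under median centring and ran from -0.52 to 0.16 with a pool left out, and another to -0.18 under scaling on shared probe sets. No paired analysis was possible because the labels pair no pool with the lone wild-type pool. The number of arrays limits every value.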
